A study of Mus musculus with 4 samples.

Results

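The genes described are 39 mouse genes of the BMP, Nodal and TGF-beta signalling pathways, listed by name: 5 BMP ligands, 6 ligands of the Nodal, activin and TGF-beta branch, 10 receptors and coreceptors, 7 secreted antagonists, 7 Smads and the 4 Id genes. They were taken from 21887 protein-coding genes on assembled chromosomes. Accessibility was read as the bases covered by ATAC peaks in each gene body plus 50 kb on each side. In these windows, which ran between 101.2 and 432.5 kb, the peak lists held 987 of 227878 peaks in the knockout at day 5, 825 of 189571 in wild type at day 5, 973 of 222257 in the knockout at day 0 and 865 of 198860 in wild type at day 0.

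Embryonic stem cells from mouse blastocysts were profiled by single-nucleus ATAC-seq, which cuts open chromatin in droplet-barcoded nuclei, here as the chromatin part of the 10x Multiome kit. The 4 groups, with 1 library each, were Cdc14ab KO cells after 5 days in neural differentiation medium (N2B27 with EGF and FGF2), wild-type cells after the same 5 days, Cdc14ab KO cells in LIF medium (day 0) and wild-type cells in LIF medium (day 0). Cdc14a and Cdc14b encode phosphatases that act on sites phosphorylated by cyclin-dependent kinases. All cells had been grown on feeder cells, removed by passage on gelatin, and all 4 libraries carry the label clone 3, so a difference between genotypes cannot be told apart from a difference between cell lines. With 1 library per group no difference has a replicate check, and no p-value is given.

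Ligands of this family bind paired type I and type II receptor kinases, which phosphorylate Smads that enter the nucleus with Smad4. The BMP branch runs through Smad1 and Smad5 and the Nodal, activin and TGF-beta branch through Smad2 and Smad3, while Smad6, Smad7 and secreted antagonists such as Noggin, Chordin, Follistatin and the Leftys dampen the signal. In mouse embryonic stem cells BMP with LIF sustains self-renewal, in part through the Id genes, and inhibition of BMP and Nodal signalling favours a neural fate.

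Promoter sequences are shown for members whose peak at the gene start differed between libraries or that stand for a branch: Bmp5, whose start held a peak in a single library; Cer1, a Nodal and BMP antagonist, chosen after its values were seen; Nodal; and Id3, a target of BMP signalling. Each runs over 300 bases, 250 before and 50 after the start, 5′ to 3′ on the strand of the gene, from RefSeq on GRCm38.p6, whose coordinates are those of mm10. Capitals mark bases inside a peak in all 4 libraries. They lie at chr9:75775115-75775414 (plus strand, Bmp5), chr4:82885102-82885401 (minus strand, Cer1), chr10:61417722-61418021 (plus strand, Nodal) and chr4:136143572-136143871 (plus strand, Id3).
Bmp5: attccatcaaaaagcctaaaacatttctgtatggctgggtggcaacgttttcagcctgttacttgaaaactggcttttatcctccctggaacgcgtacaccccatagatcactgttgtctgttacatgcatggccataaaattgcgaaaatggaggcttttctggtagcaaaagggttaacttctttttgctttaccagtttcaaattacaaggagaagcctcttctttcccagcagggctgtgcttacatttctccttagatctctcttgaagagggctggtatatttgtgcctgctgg
Cer1: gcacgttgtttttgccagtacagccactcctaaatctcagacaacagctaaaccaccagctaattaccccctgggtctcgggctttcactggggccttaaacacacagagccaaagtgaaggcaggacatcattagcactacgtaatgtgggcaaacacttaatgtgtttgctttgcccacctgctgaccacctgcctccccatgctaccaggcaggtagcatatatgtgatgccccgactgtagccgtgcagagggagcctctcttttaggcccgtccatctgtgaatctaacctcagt
Nodal: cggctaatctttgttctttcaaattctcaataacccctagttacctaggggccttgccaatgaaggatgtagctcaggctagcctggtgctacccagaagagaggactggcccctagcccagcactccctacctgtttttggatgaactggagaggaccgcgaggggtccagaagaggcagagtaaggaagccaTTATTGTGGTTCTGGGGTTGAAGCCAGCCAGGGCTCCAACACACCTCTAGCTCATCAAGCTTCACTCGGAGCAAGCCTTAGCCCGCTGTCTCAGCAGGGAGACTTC
Id3: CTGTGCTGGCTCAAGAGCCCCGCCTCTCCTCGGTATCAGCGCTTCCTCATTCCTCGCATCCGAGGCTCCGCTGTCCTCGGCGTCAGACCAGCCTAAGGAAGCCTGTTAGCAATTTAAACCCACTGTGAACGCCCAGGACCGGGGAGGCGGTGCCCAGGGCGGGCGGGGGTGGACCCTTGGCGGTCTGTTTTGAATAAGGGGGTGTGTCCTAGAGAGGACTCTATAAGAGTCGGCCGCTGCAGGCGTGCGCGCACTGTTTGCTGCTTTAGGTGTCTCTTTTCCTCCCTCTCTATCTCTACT

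The Id3 promoter was inside a peak over all 300 bases in every library. At Nodal, peaks covered 152 bases in the knockout and 106 in wild type at day 5, and 220 bases in the knockout and 238 in wild type at day 0, so that 106 bases around and after the start were shared. The Cer1 promoter had 300 bases in the knockout and 0 in wild type at day 5, and 190 bases in the knockout and 278 in wild type at day 0, so that no base was shared by all 4. The Bmp5 promoter was covered over 0 bases in both knockout libraries, over all 300 in wild type at day 5 and over 0 in wild type at day 0. Short Smad and FOXH1 elements were searched as letters on both strands in the listed promoters of 27 members; Lefty1, Lefty2, Nog, Bmp2, Bmp7, Gdf3, Tgfb3, Fst, Id1, Smad2, Smad4 and Smad7 were not matched. GGCGCC, a GC-rich Smad element, was found in 9 of the 27 (Bmpr1a, Bmpr2, Acvr1b, Tgfbr1, Chrd, Grem1, Smad5, Id2 and Id4) and in 17.3% of 17492 genes with listed promoters. CAGACA was found in 6 of the 27 (Bmp5, Tgfb2, Bmpr1b, Tgfbr1, Cer1 and Chrd) and in 21.5% of all genes. In the printed sequences it starts at base 38 of Cer1, and at base 116 of Bmp5 on the other strand. GTCTAGAC was found in Smad6 and in 0.263% of all genes, and the FOXH1 elements AATCCACA and AATACACA were found in none of the 27 and in 0.915% and 0.892% of all genes. No motif searched contains another, and a match of letters is not a bound site.

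Over the whole genome peaks covered 197.3 Mb in the knockout and 162.5 Mb in wild type at day 5, and 190.3 Mb in the knockout and 168.8 Mb in wild type at day 0, with median widths between 873 and 882 bp. Depth and the number of nuclei are unknown. Fewer nuclei with a site open and a weaker opening per nucleus cannot be told apart in such lists. Peaks lay at the starts of both target genes in all 4 libraries, which checks nothing, since the deleted bases are not given in the sources used here. All 10 pluripotency markers and all 10 neural progenitor markers had a start peak in every library. Of 10 fibroblast markers, 9 had a start peak in the knockout and 10 in wild type at day 5, and at day 0 this was 8 in the knockout and 7 in wild type. The wild-type day 5 library stood apart: each other library listed a start peak at 1 Y-linked gene and this one at 4 (Eif2s3y, Uty and Ddx3y among them), and its list was the shortest.

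Ratios are log2 of covered bases after adding 500 bp to each library, and each was then centred by taking off the median of the 20806 genes that had covered bases in any library. All 39 members had covered bases. These medians were 0.31 for the knockout against wild type at day 5 and 0.11 at day 0, and -0.03 for day 5 against day 0 in the knockout and -0.22 in wild type. A gene is called higher or lower at a centred ratio of at least 0.5 in size.

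The median covered share of the member loci was above that of all protein-coding loci in each library, though by little in wild type at day 0. It was 14.7% in the knockout at day 5, against 12.4% for all genes, and 11% in wild type at day 5, against 9.75%. At day 0 it was 14.2% in the knockout, against 12.8% for all genes, and 11.95% in wild type, against 11.5%. Members above the median of all genes numbered 26 in the knockout and 27 in wild type at day 5, and, at day 0, 20 in the knockout and 21 in wild type. Lefty1 and Lefty2, the Nodal inhibitors, Gdf3, Id3 and Acvr1b, a type I receptor for activin and Nodal, were among the most covered, and Bmp2, Acvr2a, Bmpr1b, Grem1 and Inhba among the least.

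**Figure D1:**
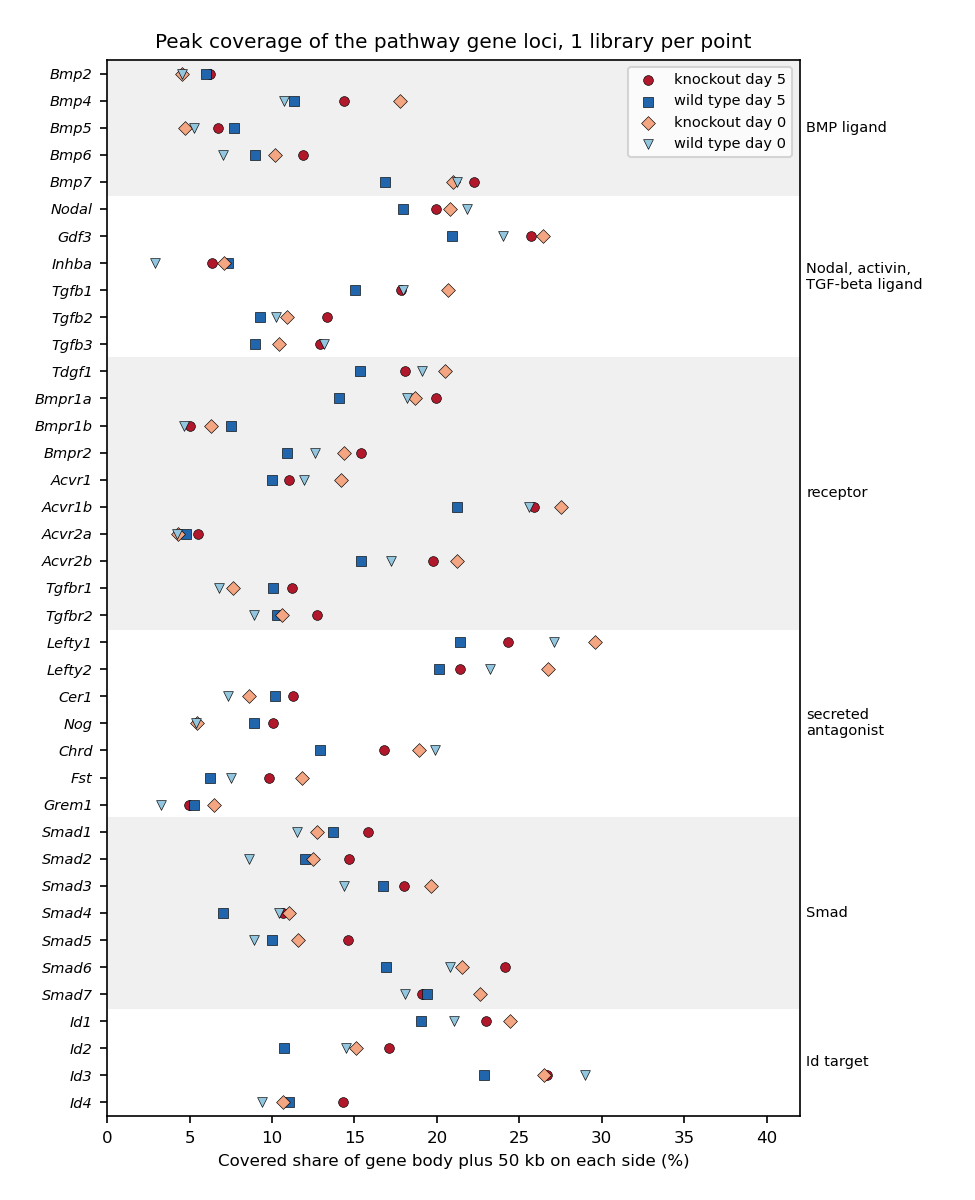
Covered share of each member's window (x axis, percent of gene body plus 50 kb on each side) in the 4 libraries, 1 point per library, with members grouped by role (y axis). Shares ran from 2.91% (Inhba, wild type day 0) to 29.6% (Lefty1, knockout day 0), and wild type at day 5 was the lowest library for 21 of the 39 members. That library also had the lowest median over all genes, at 9.75%. The share of all genes lowest in it is not given here, so the count cannot be read as many or few.

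Over time, with 50 kb flanks, the knockout gave few calls and wild type more. In the knockout 3 of 39 loci were called higher at day 5 than at day 0, where 9.54% of all genes were, and 0 lower, where 3.76% were. In wild type 10 (25.6%) were called higher, where 12.1% of all genes were, and 0 lower, where 8.82% were. The wild-type share depended on the window: it was 8 members (20.5%, against 14.3% of all genes) with 10 kb flanks and 6 (15.4%, against 12.3%) over the gene body alone. The order of the genotypes turned round over the gene body alone, where 8 members (20.5%, against 12.4% of all genes) were called higher in the knockout. Without centring the split in wild type was 6 higher (7.50% of all genes) and 3 lower (20.4%). Between genotypes, 0 members were called higher in the knockout at day 5 (9.86% of all genes) and 1 lower (5.72%), and these counts depended on the setting. They were 7 higher (26.8% of all genes) and 1 lower (2.21%) without centring, 3 higher (14.1%) and 6 lower (9.15%) with 10 kb flanks, and 10 higher (21.4%) and 3 lower (7.57%) over the gene body alone. At day 0, 4 were called higher in the knockout (10.3%, against 6.15% of all genes) and 0 lower (3.9%). This excess too depended on the setting. With 10 kb flanks 3 were higher (7.69%, against 9.73%) and 2 lower (5.13%, against 5.46%). Over the gene body alone 5 were higher (12.8%, against 14.3%) and 2 lower (5.13%, against 7.0%). Without centring 6 were higher (15.4%, against 9.34%) and 0 lower (2.86% of all genes). The median of the 39 centred ratios stayed close to the 0 of all genes: 0.04 for day 5 against day 0 in the knockout and 0.08 in wild type, and -0.04 for the knockout against wild type at day 5 and 0.05 at day 0. In all, 12 members were called with 50 kb flanks in at least 1 comparison and 27 in none. The like share of all genes is not given here, so this count cannot be read as many or few. The same library can decide several of these calls, since the wild-type day 5 and wild-type day 0 libraries each enter more than 1 comparison.

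**Figure D2:**
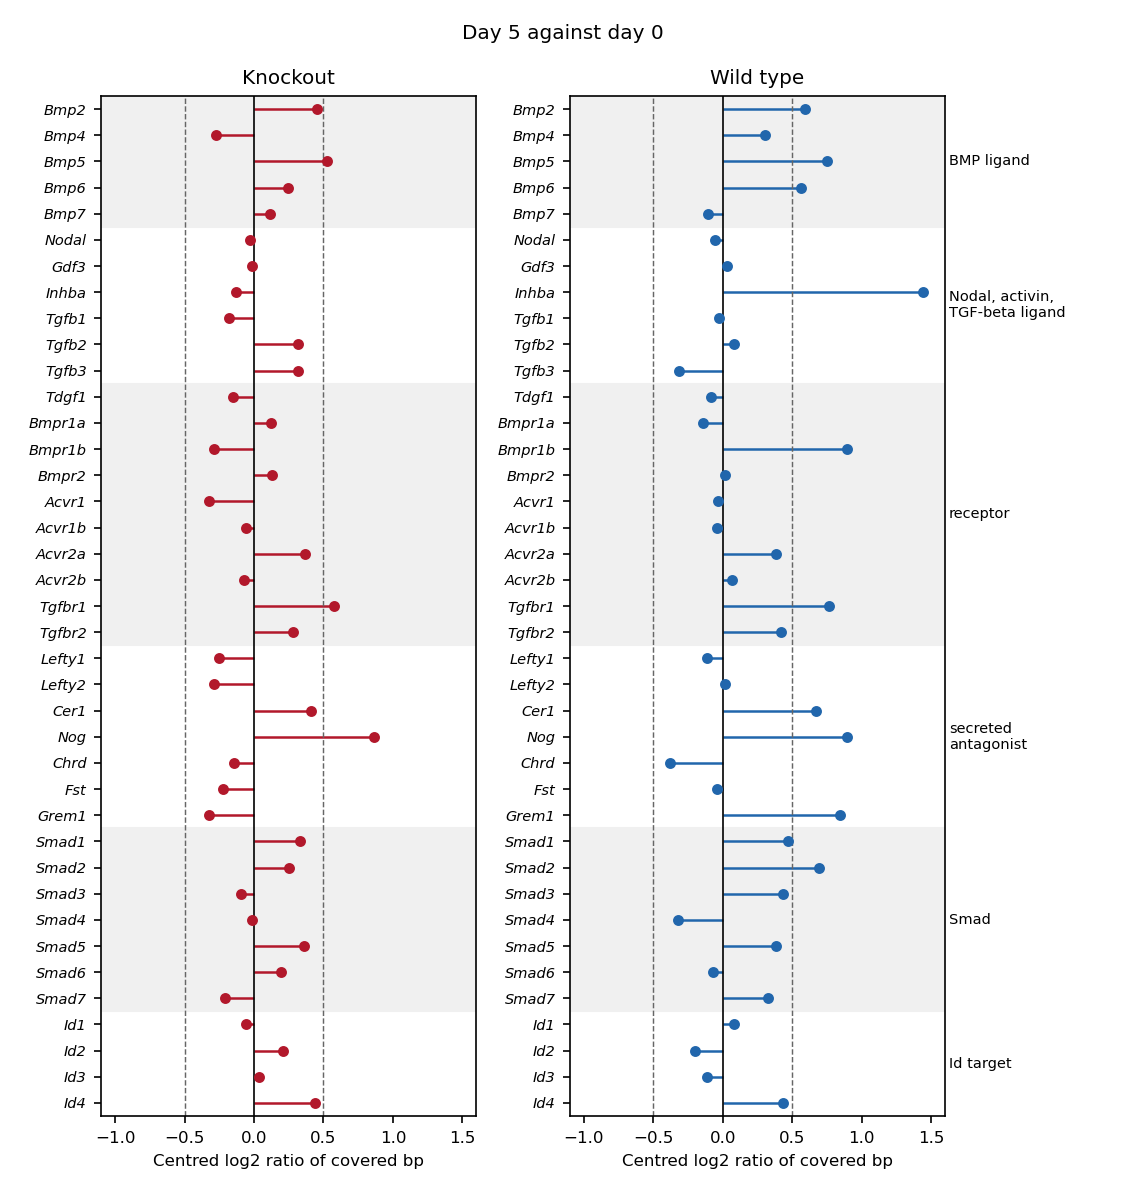
Centred log2 ratio of covered bases, day 5 against day 0 (x axis), in the knockout and in wild type for the 39 members (y axis), with dashed lines at the 0.5 limit. In the knockout 3 members lie past the right-hand line (Nog, Tgfbr1 and Bmp5) and in wild type 10, with Inhba at 1.44.

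Markers of some other cells moved in the same comparisons. Summed over the 10 fibroblast markers, peaks covered 118.4 kb in the knockout and 122.1 kb in wild type at day 5, and 126.7 kb in the knockout and 102.8 kb in wild type at day 0. Their median centred ratio was -0.05 for day 5 against day 0 in the knockout and 0.55 in wild type, and -0.81 for the knockout against wild type at day 5 and 0.24 at day 0. The signs match those at Inhba, Grem1 and Bmpr1b in each comparison, though -0.05 is close to 0. Other members had the same signs, Smad3, Smad7, Lefty2 and Id1 among them, so the match is not particular to Inhba, Grem1 and Bmpr1b. A start peak was lacking at Prrx1 in the knockout at day 5 and at none of the 10 in wild type at day 5. At day 0 it was lacking at Lum and Prrx1 in both genotypes, and at Col3a1 in wild type. The neural progenitor markers had medians of 0.00 for day 5 against day 0 in the knockout and 0.27 in wild type. For the knockout against wild type they had -0.39 at day 5 and -0.09 at day 0. The 6 endoderm markers had medians of 0.32 for day 5 against day 0 in the knockout and 0.55 in wild type. Both were above 0, as were the ratios at Bmp5, Tgfbr1 and Nog. The same held at other members, Bmp2, Smad1, Smad5 and Id4 among them, so it is not particular to Bmp5, Tgfbr1 and Nog. Between genotypes the endoderm medians were -0.04 at day 5 and 0.20 at day 0. Over the 4 comparisons the mesoderm medians lay between -0.09 and 0.07, and the pluripotency medians between -0.23 and 0.05. Start peaks were listed at 5 of 6 endoderm markers in the knockout and 4 in wild type at day 5, and, at day 0, at 4 in the knockout and 3 in wild type, and at 5 or 6 of 6 mesoderm markers in every library. The part of other cells, of the Y-linked peaks and of depth in the member results was not tested. Without the wild-type day 5 library, what remains is the day 0 comparison of genotypes (4 calls) and the time course of the knockout (3 calls).

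Among the BMP ligands, 1 of 5 was called higher at day 5 in the knockout (9.54% of all genes) and 3 of 5 in wild type (12.1%). Bmp5 (chr9:75775365-75900316), a ligand of the BMP7 subgroup, had 15.2 kb covered in the knockout and 17.3 kb in wild type at day 5, and 10.6 kb in the knockout and 11.8 kb in wild type at day 0. Both day 5 libraries thus lay above both day 0 libraries, with ratios of 0.53 in the knockout, which held under 5 of 9 alternative settings, and 0.75 in wild type. Of its 31 joined regions (peaks of the libraries merged where they overlap by 1 bp), 6 were listed only in the knockout at day 5 and 9 only in wild type at day 5, and 1 was listed at day 5 in both genotypes and at day 0 in neither.

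The start of Bmp5 had a peak in wild type at day 5 alone, at chr9:75774974-75775834. Within 1 kb of the start 0 bp were covered in either knockout library, 861 bp in wild type at day 5 and 0 bp in wild type at day 0. This is the promoter printed above. Among all genes, 1.54% lacked a start peak in the knockout at day 5 but had one in wild type, and 2.44% gained one in wild type at day 5 over day 0; Bmp5 was the only member in either class.

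Bmp2, the ligand closest to Bmp4, had few peaks: 6.91 kb in the knockout and 6.60 kb in wild type at day 5, and 5.02 kb in the knockout and 4.99 kb in wild type at day 0. The day 5 libraries were again the higher, at 0.45 in the knockout and 0.59 in wild type. In wild type the ratio was 0.33 with 10 kb flanks and 0.16 over the gene body alone, so that the call ended in both. Bmp6, known as a regulator of iron metabolism in the liver, had 30.2 kb in the knockout and 22.9 kb in wild type at day 5, and 25.9 kb in the knockout and 17.9 kb in wild type at day 0. Its ratio for day 5 against day 0 was 0.25 in the knockout and 0.57 in wild type, and the call in wild type held under 6 of 9 alternatives.

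Bmp4 (chr14:46383525-46390669), the BMP used with LIF to hold mouse stem cells undifferentiated, was called between genotypes at day 0. It had 15.4 kb in the knockout and 12.2 kb in wild type at day 5, and 19.0 kb in the knockout and 11.5 kb in wild type at day 0. The knockout day 0 library was the high one, with a ratio of 0.02 at day 5 and 0.60 at day 0. Of 28 regions at Bmp4, 6 were listed only in the knockout at day 0 at distances between 53.7 kb (after the start) and -35.5 kb (before it). Its start had peaks over 932 to 998 bp in every library, and the day 0 ratio was 0.22 with 10 kb flanks and 0.03 over the gene body alone.

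Bmp7, a ligand of early kidney and eye development, had 38.4 kb in the knockout and 29.0 kb in wild type at day 5, and 36.2 kb in the knockout and 36.6 kb in wild type at day 0. It passed the limit in no comparison, with ratios from -0.12 to 0.11. Over the gene body alone the Bmp7 ratio did pass it, at 0.60 for day 5 against day 0 in the knockout and 0.57 for the knockout against wild type at day 5.

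In the Nodal, activin and TGF-beta branch the Nodal locus itself differed little with 50 kb flanks and all listed peaks. Nodal (chr10:61417972-61425338), the ligand that patterns the early embryo and is active in stem cells, had 21.4 kb in the knockout and 19.3 kb in wild type at day 5, and 22.3 kb in the knockout and 23.4 kb in wild type at day 0. Its 4 ratios lay between -0.17 and -0.03. Over the gene body alone the knockout against wild type gave -0.496 at day 5, just inside the limit, and -0.33 at day 0. With the widest peaks in equal numbers from each library it gave -0.43 at day 5, and with 10 kb flanks -0.06. Of the 33 regions at Nodal, 18 were shared by all 4 libraries and 6 were absent only from wild type at day 5. Those 6 lay at -35.8, -19.8, -7.9 and -4.4 kb from the start of Nodal, upstream of it, and at 44.2 and 47.1 kb downstream.

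Gdf3, a ligand of pluripotent cells that signals with the coreceptor Cripto, had 26.9 kb in the knockout and 21.9 kb in wild type at day 5, and 27.7 kb in the knockout and 25.1 kb in wild type at day 0. No centred ratio was past 0.03 in size with 50 kb flanks. With 10 kb flanks the Gdf3 ratio was 0.36 for the knockout against wild type at day 5 and 0.40 for day 5 against day 0 in the knockout. Its window also holds other genes, Dppa3 among them, so the bases are not of Gdf3 alone. Tdgf1, which encodes Cripto, had 19.2 kb in the knockout and 16.4 kb in wild type at day 5, and 21.9 kb in the knockout and 20.4 kb in wild type at day 0, with ratios between -0.15 and -0.01. For the knockout against wild type at day 5 the Tdgf1 ratio was 0.52 over the gene body alone, in place of -0.08.

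Inhba (chr13:16004256-16031609), the gene of the subunit of activin A, had the largest ratios of the 39. It had 8.08 kb in the knockout and 9.31 kb in wild type at day 5, and 9.06 kb in the knockout and 3.71 kb in wild type at day 0. The low library was wild type at day 0, and the other 3 lay within 8.08 to 9.31 kb. In peaks this was 9 in the knockout and 11 in wild type at day 5, and, at day 0, 11 in the knockout and 4 in wild type. The ratio was -0.13 for day 5 against day 0 in the knockout and 1.44 in wild type, and -0.499 for the knockout against wild type at day 5, just inside the limit, and 1.08 at day 0.

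The 4 peaks of Inhba in wild type at day 0 were the 4 regions shared by all libraries, including the start, which was covered over 847 to 927 bp in each. The knockout at day 0 alone listed regions at -27.3, -26.6, -21.4 and 2.6 kb from the start of Inhba, with negative distances upstream. Regions at -17.8, 21.6, 62.3 and 68.6 kb were listed by wild type at day 5 alone. A region at -25.8 kb was shared by the knockout at day 0 and wild type at day 5, and regions at -3.9 and 4.6 kb by both knockout libraries. The call at day 0 held under all 9 alternative settings, with values from 0.64 to 1.18, while the day 5 against day 0 ratio in wild type was 0.26 over the gene body alone.

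The TGF-beta ligands Tgfb1, Tgfb2 and Tgfb3 were called in no comparison, and their 12 ratios lay between -0.43 and 0.32. The lowest of these belonged to Tgfb3, which had 15.7 kb in the knockout and 10.9 kb in wild type at day 5, and 12.8 kb in the knockout and 16.1 kb in wild type at day 0. It gave 0.20 for the knockout against wild type at day 5 and -0.43 at day 0, and 0.32 for day 5 against day 0 in the knockout and -0.32 in wild type.

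**Figure D3:**
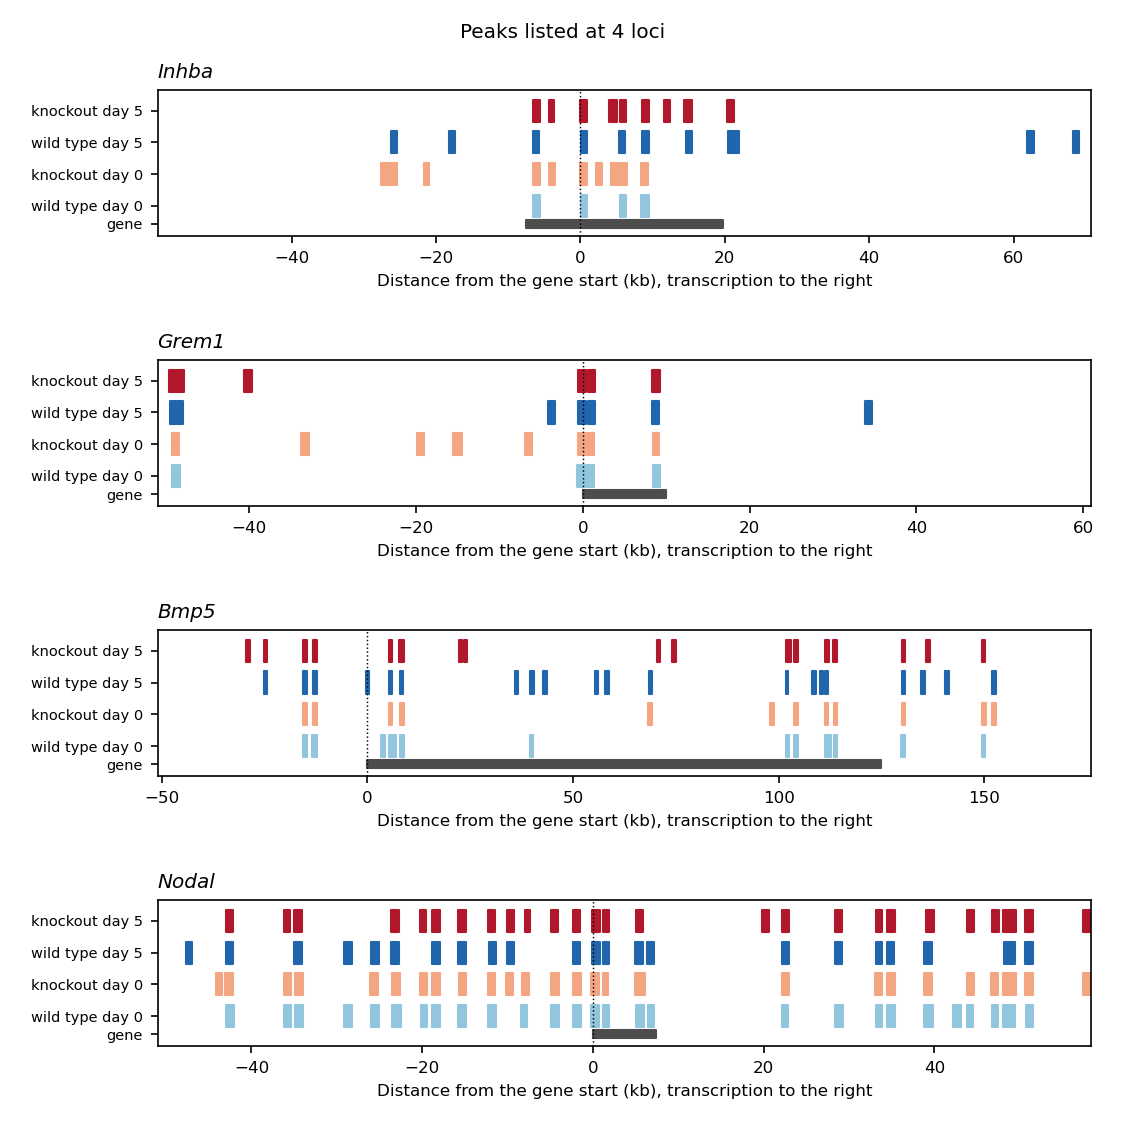
Peaks at Inhba, Grem1, Bmp5 and Nodal in the 4 libraries, by distance from the gene start in kb (x axis), with the gene body as a grey bar and the start as a dotted line. Inhba shows 9 to 11 peaks in 3 libraries and 4 in wild type at day 0, Bmp5 shows a start peak in wild type at day 5 alone, and Nodal shows 18 of its 33 regions in every library.

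Among the 10 receptors and coreceptors, 1 was called higher at day 5 in the knockout (9.54% of all genes) and 2 in wild type (12.1%), and 1 was lower in the knockout than in wild type at day 5 (5.72%). Bmpr1b (chr3:141837135-142169585), a type I BMP receptor, had 21.8 kb in the knockout and 32.4 kb in wild type at day 5, and 27.3 kb in the knockout and 20.2 kb in wild type at day 0. The highest library was wild type at day 5 and the lowest wild type at day 0. Peaks numbered 24 in the knockout and 37 in wild type at day 5, and, at day 0, 31 in the knockout and 23 in wild type.

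The Bmpr1b ratio was -0.87 for the knockout against wild type at day 5 and 0.32 at day 0, and -0.28 for day 5 against day 0 in the knockout and 0.90 in wild type. Both calls held under all 9 alternatives, with values from -0.90 to -0.56 and from 0.67 to 1.00. The bases lay mostly in the gene body, with 17.0 kb in the knockout and 25.5 kb in wild type at day 5, and 21.8 kb in the knockout and 14.3 kb in wild type at day 0. The knockout at day 0 alone listed 8 regions and wild type at day 5 alone 9, all within the gene body. The listed starts were covered over 1769 to 1840 bp in all libraries, so the starts held peaks in every library.

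Tgfbr1 (chr4:47353222-47414926), the type I receptor for TGF-beta, was called higher at day 5 in both genotypes. It had 18157 bp in the knockout and 16288 bp in wild type at day 5, and 12289 bp in the knockout and 11003 bp in wild type at day 0. Both day 5 libraries lay above both day 0 libraries, with ratios of 0.57 in the knockout and 0.77 in wild type. The call in wild type held under all 9 alternatives (0.55 to 1.03) and that in the knockout under 7 (0.50 to 0.72). Its 27 regions include 5 listed at day 5 in both genotypes and not at day 0, at -36.7, -7.8, 55.7, 57.9 and 74.4 kb from the first listed start of Tgfbr1.

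The other 7 receptors (Bmpr1a, Bmpr2, Acvr1, Acvr1b, Acvr2a, Acvr2b and Tgfbr2) were called in no comparison. Their ratios ran from -0.33, for Acvr1 at day 5 against day 0 in the knockout, to 0.42, for Tgfbr2 at day 5 against day 0 in wild type. Acvr2a, an activin type II receptor with few peaks, had 10.5 kb in the knockout and 9.01 kb in wild type at day 5, and 8.17 kb in the knockout and 8.02 kb in wild type at day 0, a like ratio of 0.37 in the knockout and 0.38 in wild type for day 5 against day 0.

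Among the secreted antagonists, 1 of 7 was higher at day 5 in the knockout (9.54% of all genes) and 3 of 7 in wild type (12.1%), and 2 of 7 were higher in the knockout than in wild type at day 0 (6.15%). Nog (chr11:89300638-89302559), which encodes Noggin, a BMP-binding neural inducer, had 10.2 kb in the knockout and 9.07 kb in wild type at day 5, and 5.52 kb in the knockout and 5.50 kb in wild type at day 0. Peaks numbered 12 in the knockout and 11 in wild type at day 5, and at day 0 there were 7 in each genotype. Its ratio was 0.86 in the knockout and 0.90 in wild type, so that both day 5 libraries lay above both day 0 libraries by a like amount.

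The sites behind this at Nog differed between genotypes. Of 17 regions, 3 were listed in the knockout at day 5 alone and 4 in wild type at day 5 alone, and 1 was listed at day 5 in both. With 10 kb flanks the ratio was 0.48 in the knockout and -0.16 in wild type, and over the gene body alone 1.43 in the knockout and -1.34 in wild type. The knockout against wild type over the Nog gene body alone gave 1.31 at day 5 and -1.42 at day 0. Within 1 kb of the gene end used as the start, peaks covered 1211 bp in the knockout and 207 bp in wild type at day 5, and 311 bp in the knockout and 883 bp in wild type at day 0. The peak over the gene itself was listed in the knockout at day 5 and in wild type at day 0.

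Cer1 (chr4:82881751-82885151), which binds Nodal and BMPs outside the cell, had 11.7 kb in the knockout and 10.5 kb in wild type at day 5, and 8.86 kb in the knockout and 7.58 kb in wild type at day 0. The ratio for day 5 against day 0 was 0.41 in the knockout and 0.67 in wild type. Over the gene body alone it was -0.12 in the knockout and -1.92 in wild type, the reverse direction. The knockout against wild type at day 5 gave 1.83 at Cer1 over the gene body alone, in place of -0.16, and at day 0 -0.52 with 10 kb flanks, in place of 0.11. The region over the start of Cer1, chr4:82884467-82885431, was listed in the knockout on both days and in wild type at day 0, but not in wild type at day 5, as the printed sequence shows. A neighbouring region at -1.0 kb from the start of Cer1 was listed in all 4, so the gene kept a start peak everywhere.

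Grem1 (chr2:113748675-113758648), a BMP antagonist, had 5.48 kb in the knockout and 5.76 kb in wild type at day 5, and 7.14 kb in the knockout and 3.57 kb in wild type at day 0. The knockout at day 0 was the highest library and wild type at day 0 the lowest. The ratio was -0.33 for day 5 against day 0 in the knockout and 0.84 in wild type, and -0.37 for the knockout against wild type at day 5 and 0.80 at day 0. All 4 peaks of Grem1 in wild type at day 0 were shared by every library. The knockout at day 0 alone listed 4 regions, between -33.3 and -6.5 kb from the start of Grem1, and wild type at day 5 alone listed regions at -3.7 and 34.2 kb. Over the gene body alone the ratio was -0.08 for the knockout against wild type at day 0 and 0.03 for day 5 against day 0 in wild type, so neither call held there.

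Fst (chr13:114452262-114458989), which encodes the activin-binding protein Follistatin, had 10.5 kb in the knockout and 6.62 kb in wild type at day 5, and 12.6 kb in the knockout and 8.04 kb in wild type at day 0. The knockout was the higher on both days, at 0.32 at day 5 and 0.51 at day 0, which is barely past the limit. Fst kept that call under 2 of 9 alternatives and was -0.05 over the gene body alone. Chordin, the product of Chrd, binds BMPs like Noggin. Its locus had 18.6 kb in the knockout and 14.4 kb in wild type at day 5, and 21.0 kb in the knockout and 22.1 kb in wild type at day 0, with ratios from -0.38 to 0.06. Over the gene body alone the Chrd ratio for day 5 against day 0 was past the limit, at -0.64 in the knockout and -0.96 in wild type.

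The Lefty genes, targets and inhibitors of Nodal signalling, lie side by side on chromosome 1, and their windows share 64.1 kb, so their values are not independent. Lefty1 had 25.2 kb in the knockout and 22.1 kb in wild type at day 5, and 30.6 kb in the knockout and 28.0 kb in wild type at day 0. Lefty2 had 22.7 kb in the knockout and 21.3 kb in wild type at day 5, and 28.4 kb in the knockout and 24.6 kb in wild type at day 0. Both day 0 libraries lay above both day 5 libraries at each gene, but relative to all genes the ratios for day 5 against day 0 were -0.25 and -0.29 in the knockout and -0.11 and 0.02 in wild type, none past the limit. The knockout against wild type at day 5 was -0.12 at Lefty1, but -0.64 with 10 kb flanks and -0.72 over the gene body alone.

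Near Lefty2 a region at chr1:180899614-180900468 was listed at day 5 in neither genotype and at day 0 in both. Within 1 kb of the high-coordinate gene end 0 bp were covered in either day 5 library, and 439 bp in the knockout and 494 bp in wild type at day 0. The strand of Lefty2 is not listed, so that end may not be its promoter. At the low-coordinate end 21 bp in the knockout and 3 bp in wild type at day 5, and 82 bp in the knockout and 75 bp in wild type at day 0 were covered. By the high-coordinate end, Lefty2 was the only member with a start peak at day 0 and none at day 5, in either genotype. Such genes made up 1.9% of all genes in the knockout and 2.72% in wild type. That end was used because it had more covered bases, all of them at day 0. The low-coordinate end had covered bases in every library, so this result for Lefty2 rests on the choice of end. The stretch around Lefty2 held 2 more regions listed only at day 0, chr1:180885326-180886245 and chr1:180908896-180909862.

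Bmp5 and Lefty2, the latter only by the end chosen for it, were the only members whose start peak differed between libraries. They were 5.13% of the 39, against 8.48% of all genes. The other 37 (94.9%) had one in all 4 libraries, against 69.9% of all genes, and no member lacked one everywhere, against 21.6%. For 12 members the start was taken as the gene end with more covered bases, which favours a peak there. Over listed starts alone, 26 of 27 members (96.3%) and 69.5% of 17492 genes had a start peak in all 4 libraries. In the remaining classes there were 0 members: a start peak of the knockout that wild type lacked at day 5 (3.33% of all genes) or at day 0 (2.2%), a start peak of wild type that the knockout lacked at day 0 (1.27%), and a start peak of the knockout present at day 5 but not at day 0 (2.49%). Scoring the start base itself gave 8 differing members: Bmp5, Inhba, Tgfb2, Tdgf1, Cer1, Nog, Fst and Smad2. The share of all genes under that rule is not given here, and the 8.48% above holds for the 1 kb window only.

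**Figure D4:**
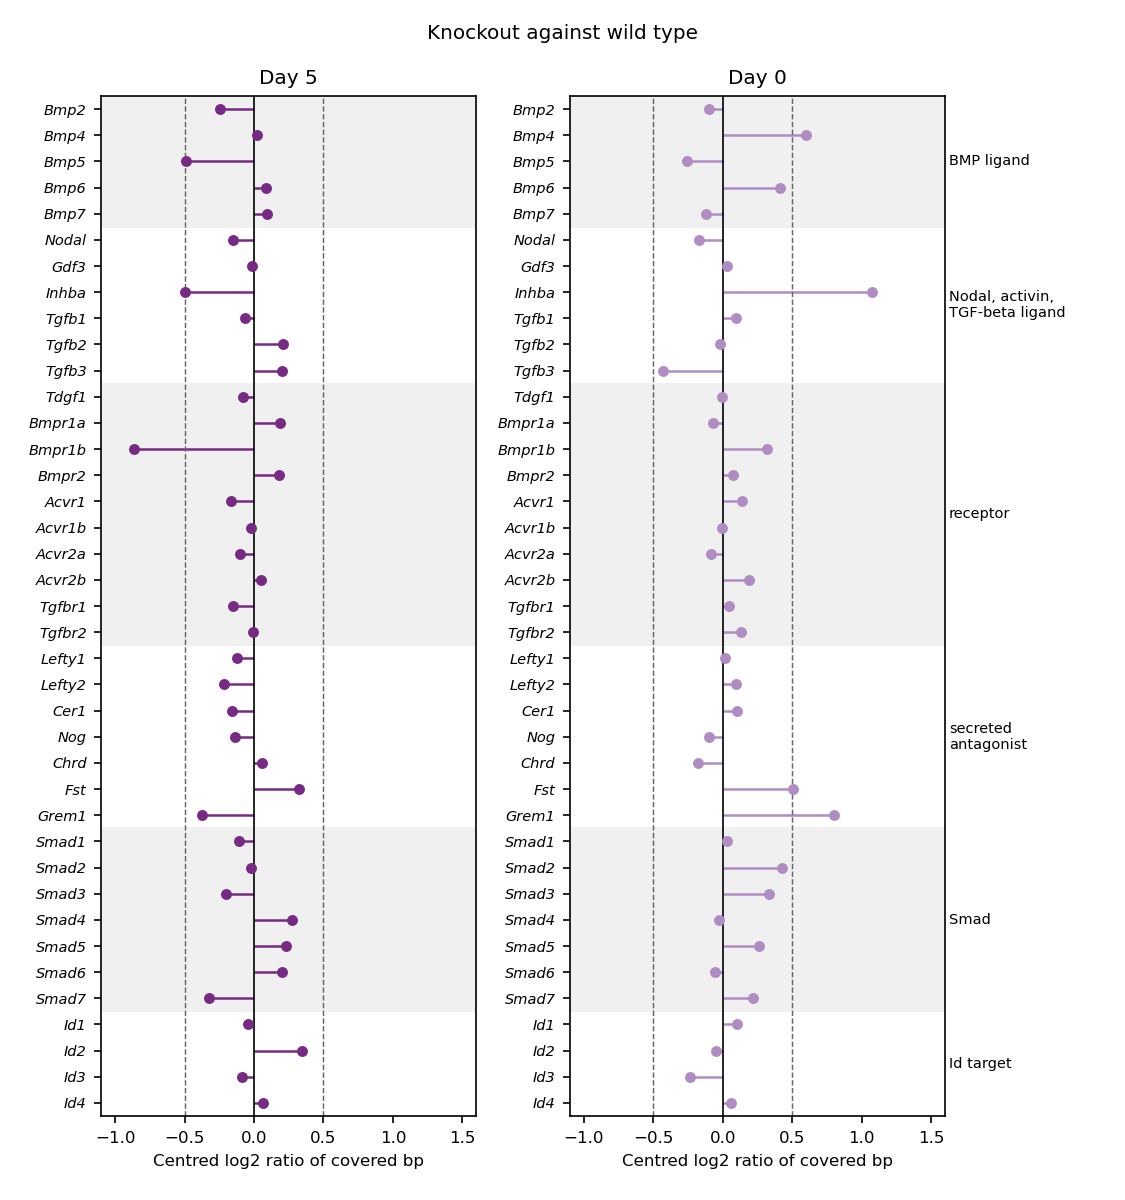
Centred log2 ratio of covered bases, knockout against wild type (x axis), at day 5 and at day 0 for the 39 members (y axis), with dashed lines at the 0.5 limit. At day 5 Bmpr1b is past the left-hand line at -0.87, and at day 0 Inhba, Grem1, Bmp4 and Fst are past the right-hand line.

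Of the 7 Smads, Smad2, the mediator of Nodal and activin signals, was the only one called. It had 25036 bp in the knockout and 20476 bp in wild type at day 5, and 21352 bp in the knockout and 14635 bp in wild type at day 0. The low library was wild type at day 0, with a ratio of 0.25 for day 5 against day 0 in the knockout and 0.69 in wild type (0.46 to 0.71 under the alternatives, of which 7 of 9 kept the call). The knockout against wild type gave -0.02 at day 5 and 0.42 at day 0.

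Smad3, the partner of Smad2, had 38.0 kb in the knockout and 35.3 kb in wild type at day 5, and 41.4 kb in the knockout and 30.4 kb in wild type at day 0. It too was lowest in wild type at day 0, with -0.09 for day 5 against day 0 in the knockout and 0.44 in wild type. The BMP mediators Smad1 and Smad5 gave 0.33 and 0.36 in the knockout and 0.47 and 0.38 in wild type for day 5 against day 0, all short of the limit. Smad4, the shared partner, had 17982 bp in the knockout and 11878 bp in wild type at day 5, and 18586 bp in the knockout and 17584 bp in wild type at day 0, with 0.27 for the knockout against wild type at day 5 and -0.03 at day 0. The inhibitory Smad7 had 24.6 kb in the knockout and 24.9 kb in wild type at day 5, and 29.1 kb in the knockout and 23.2 kb in wild type at day 0. It and Smad6 stayed within the limit in every comparison with 50 kb flanks. With 10 kb flanks Smad7 was past it, at -0.59 for the knockout against wild type at day 5 and 0.74 for day 5 against day 0 in wild type, which was 0.62 over the gene body alone.

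The Id genes, which encode dominant negative partners of basic helix-loop-helix factors, were called in no comparison. Id1 had 23.2 kb in the knockout and 19.2 kb in wild type at day 5, and 24.7 kb in the knockout and 21.3 kb in wild type at day 0. Id3 had 27.1 kb in the knockout and 23.2 kb in wild type at day 5, and 26.9 kb in the knockout and 29.5 kb in wild type at day 0. Their centred ratios lay between -0.23 and 0.10.

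Id2 had 17.5 kb in the knockout and 10.9 kb in wild type at day 5, and 15.4 kb in the knockout and 14.8 kb in wild type at day 0. The low library was again wild type at day 5, with 0.35 for the knockout against wild type at day 5 and -0.05 at day 0. The Id2 ratio at day 5 turned to -0.27 with 10 kb flanks and -0.12 over the gene body alone, and was 0.51 with the widest peaks in equal numbers and 0.65 without centring. Id4, known for its part in neural progenitors, gave 0.44 for day 5 against day 0 in each genotype, with 15028 bp in the knockout and 11538 bp in wild type at day 5, and 11162 bp in the knockout and 9880 bp in wild type at day 0. The start of every Id gene was covered over at least 833 bp in each library.

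Over single regions, peaks joined across libraries gave 1345 regions in the member loci and 266329 in all protein-coding loci. In the member loci 532 (39.6%, 95% exact interval 36.9 to 42.2) were listed in all 4 libraries, against 36.0% in all loci. Regions listed only at day 5, in both genotypes, made up 4.46%, against 4.48%, and those listed only at day 0, in both genotypes, 4.16% (3.16 to 5.37), against 6.01%. The day 0 share depended on the lengths of the peak lists. With the widest peaks in equal numbers it was 5.45% (4.26 to 6.86), against 5.985%. Regions listed in both knockout libraries and in neither wild-type library numbered 61 (4.54%, against 3.67%), and the reverse 6 (0.446%, against 0.857%). This difference depended on the lengths of the peak lists: with the widest peaks in equal numbers from each library there were 46 (3.69%, against 2.77%) and 50 (4.01%, against 3.00%). The intervals cover counting error only, and regions of 1 locus are not independent.

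Sites near starts were shared far more often than distal ones. Within 1 kb of a member's start 45 of 57 regions (78.9%, 66.1 to 88.6) were listed in all 4 libraries, against 487 of 1288 (37.8%) farther away. In all loci these shares were 76.2% and 32.4%.

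**Figure D5:**
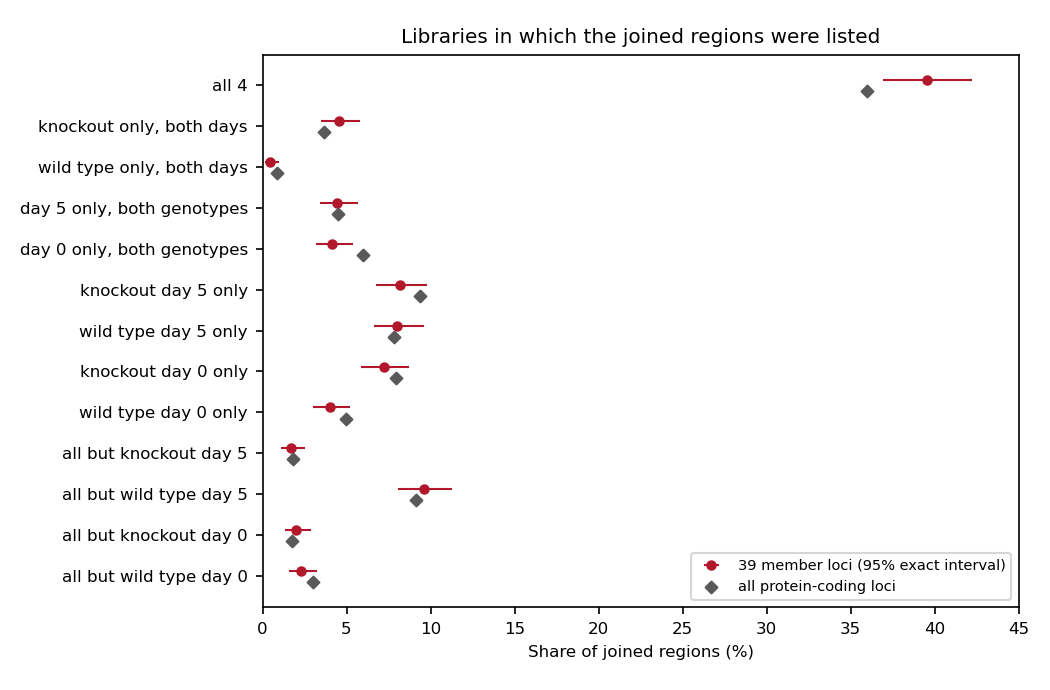
Share of joined regions (x axis, percent) by the libraries that listed them (y axis), for the 39 member loci with 95% exact intervals and for all protein-coding loci. The share in all 4 libraries is 39.6% in member loci and 36.0% in all loci, and the share at day 0 only is 4.16% and 6.01%.

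A further 53 genes of the pathway, listed by name, gave these calls. For day 5 against day 0 in the knockout 1 was called higher (9.54% of all genes) and 0 lower (3.76%), and in wild type 6 higher (11.3%, against 12.1% of all genes) and 2 lower (8.82%). For the knockout against wild type 2 were called higher (9.86% of all genes) and 2 lower (5.72%) at day 5, and 4 higher (6.15%) and 0 lower (3.9%) at day 0. Their medians were -0.12 over time in the knockout and -0.05 in wild type, and -0.10 between genotypes at day 5 and -0.01 at day 0. Their start peaks differed between libraries at 4 (Bmp10, Inhbb, Cfc1 and Nedd4l), or 7.55%, against 8.48% of all genes. At Nedd4l this rested on 11 bp in the knockout and 6 bp in wild type at day 5, and 0 bp and 1 bp at day 0. Its start was the gene end with more covered bases. At Cfc1 the day 0 libraries had 21 bp in the knockout and 0 bp in wild type.

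Bmper, a secreted modulator of BMPs, followed the pattern of Inhba: 16.8 kb in the knockout and 20.2 kb in wild type at day 5, and 20.6 kb in the knockout and 7.80 kb in wild type at day 0. The low library was wild type at day 0, with 1.54 for day 5 against day 0 in wild type and 1.24 for the knockout against wild type at day 0. Acvr1c, a type I receptor for Nodal, did so too, at 1.28 and 0.78. Chrdl1, a chordin-like antagonist on chromosome X, had 10.9 kb in the knockout and 8.44 kb in wild type at day 5, and 2.72 kb in the knockout and 2.75 kb in wild type at day 0. It was higher at day 5 in both genotypes, at 1.85 in the knockout and 1.68 in wild type. Over the whole chromosome X the lists held 6659 peaks in the knockout and 4112 in wild type at day 5, and, at day 0, 5565 in the knockout and 4273 in wild type.

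In the opposite direction, Mixl1, a mesendoderm factor induced by Nodal, had 8.02 kb in the knockout and 4.40 kb in wild type at day 5, and 9.26 kb in the knockout and 10.4 kb in wild type at day 0. Here wild type at day 5 was the low library, at -0.17 for day 5 against day 0 in the knockout and -0.93 in wild type. Bmp8a was also lower at day 5 in wild type, at -0.83 (-0.28 in the knockout), and higher in the knockout than in wild type at day 5, at 0.63 (0.09 at day 0). Other calls were Tgfbr3 (0.68) and Bmp3 (0.68) at day 5 against day 0 in wild type, where the knockout gave 0.16 and -0.20, and Bmp3 (0.54) and the ubiquitin ligase Smurf1 (0.57) for the knockout against wild type at day 0. At day 5 Bmp10 (0.50) was also higher in the knockout, and Bmper (-0.56) was lower.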

How the data were processed

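Single-nucleus ATAC libraries of 4 groups, 1 library each, were described from 4 deposited peak lists, which hold the position of each peak but no count, score or height. Peaks were called per library by Cell Ranger ARC 2.0.0 on mm10, per the file headers; the submitters' processing notes also name Scanpy 1.7.2. Whether doublets were removed is not given in the sources used here, and the depth is unknown.

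Gene ends and 27 member starts came from RefSeq tables of GRCm38.p6. For the other 12 members the gene end with more covered bases was used. Covered bases, start peaks (any base within 1 kb), joined regions and motifs were computed with Python 3.11.15, numpy 2.4.6, pandas 2.3.3 and scipy 1.17.1, and checked on simulated data. No test was possible with 1 library per group. Values in every library are given for 14 members named by rule, each member called and each member whose start peak differs. The members and lists were chosen with earlier results of these data known.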

Additional observations from a re-analysis of the deposited data

Results flagged for a closer look

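At 3 members the knockout against wild type pointed in opposite directions on the 2 days, with a difference of at least 1 between the centred log2 ratios. At Inhba the ratio at day 5 minus that at day 0 was -1.58 (-0.50 at day 5 and 1.08 at day 0). At Bmpr1b it was -1.19 (-0.87 at day 5 and 0.32 at day 0). At Grem1 it was -1.18 (-0.37 at day 5 and 0.80 at day 0). Each ratio rests on 1 library per group, so the differences were not tested. How many of all genes pass the same cut is not given here, so the count of 3 members cannot be read as many or few. All 3 loci had their fewest covered bases in wild type at day 0. The fibroblast markers moved the same way, with median ratios of -0.81 at day 5 and 0.24 at day 0, and their part was not tested. The same signs were seen at members not flagged here, Smad3 and Smad7 among them.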

How the results depend on the processing

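No paired analysis was possible because each group has 1 library. Of 18 calls, 18 were kept with a pseudocount of 100 bp, 16 with 2000 bp, 16 with the number of peaks, 16 with the widest 189571 peaks of each library, 16 without bases near other gene ends, 17 at a mean of at least 2000 bp, 13 without centring, 9 with 10 kb flanks and 7 over the gene body alone. The cause was not tested.

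With 10 kb flanks, 3 members were higher and 6 lower in the knockout at day 5 (median 0.088), 2 lower in it at day 0, and 1 lower at day 5 in wild type. There Nog reversed to -0.16. Over the gene body alone, 10 were higher and 3 lower in the knockout at day 5 (median 0.23), 2 lower in it at day 0, 8 higher and 1 lower over time in the knockout, and 6 higher and 5 lower in wild type. There Fst (-0.049) and Grem1 (-0.083) reversed at day 0, and Cer1 (-1.92) and Nog (-1.34) over time in wild type. For the knockout against wild type at day 5, 3 members were lower with 100 bp, 2 by the number of peaks, 3 without bases near other gene ends, and 1 higher and 2 lower with the widest peaks. The shares of all genes lower were 6.15%, 5.80% and 6.92% in the same order. With the widest peaks 11.3% of all genes were higher and 6.26% lower. Without centring, medians were 0.27 at day 5 and 0.15 at day 0 between genotypes and -0.14 over time in wild type, with 7 members higher in the knockout at day 5, and 6 higher and 3 lower over time in wild type. At a limit of 0.3, 2 members were higher and 5 lower in the knockout at day 5, 8 and 1 at day 0, 11 and 2 over time in the knockout, and 18 and 3 in wild type. At a limit of 1, 0 were lower in the knockout at day 5, 1 was higher at day 0, 0 were higher over time in the knockout and 1 in wild type. The shares of all genes higher and lower at the limit of 0.3 were 18.7% and 15.4% at day 5 and 13.9% and 9.38% at day 0 between genotypes, and 17.5% and 11.8% over time in the knockout and 20.2% and 18.8% in wild type. At the limit of 1 they were 3.99% and 1.43%, 1.82% and 1.17%, 3.30% and 0.711%, and 4.09% and 2.73%, in the same order. With 10 kb flanks they were 14.1% and 9.15%, 9.73% and 5.46%, 11.1% and 9.50%, and 14.3% and 14.2%, and over the gene body alone 21.4% and 7.57%, 14.3% and 7.0%, 12.4% and 13.8%, and 12.3% and 22.6%. Start peaks differed at 8 members on the start base and at 8 with the widest peaks, with no share of all genes at hand for either. With the widest peaks, 35.3% of member regions were in all 4 libraries, against 32.5% in all loci. The share in the knockout only on both days was 3.69%, against 2.77%, and in wild type only on both days 4.01%, against 3.00%. At day 0 only it was 5.45%, against 5.985%. It was 5.53% in the knockout at day 5 only, against 7.78%, and 10.8% in wild type at day 5 only, against 10.4%. In wild type at day 0 only it was 5.21%, against 6.80%. Peak lists of unknown depth limit every share.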
